A study of Mus musculus with 2 samples.

Results

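A set of 10 chaperone and stress-response genes was followed in chromatin accessibility maps of mouse retina, namely Hspa5, Hspa8, Hsp90aa1, Hsp90ab1, Hsph1, Dnajb1, Hspd1, Hspe1, Atf4 and Xbp1. They were picked by name, and all 10 were found among the 21887 protein-coding genes of the GRCm38 gene table. The material was flash-frozen neural retina of adult C57BL/6 littermates, 1 library from a wild type mouse or mice and 1 from Gabra3 knockout, where Gabra3 encodes a subunit (alpha 3) of GABA-A receptors. Each was made by ATAC-seq from 20000 nuclei, a method in which the Tn5 transposase cuts open DNA and leaves sequencing adapters, and was read as 75 bp single-end reads. The labels give neither the sex, nor how many animals went into a library, nor the kind of knockout allele. With 1 library per genotype there was no replicate check and no test between genotypes, so each difference below is between 2 libraries.

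These genes serve the folding of proteins. Hspa8, Hsph1, Dnajb1, Hsp90aa1 and Hsp90ab1 make cytosolic chaperones and their partners, and several of them are classical targets of heat shock factor 1, which binds repeats of GAA and TTC called heat shock elements. Hspa5, also known as BiP, is the HSP70 of the endoplasmic reticulum. When unfolded protein builds up there, the sensors IRE1, PERK and ATF6 act through spliced Xbp1, translated Atf4 and cleaved ATF6 to raise Hspa5 and other genes, in part through the endoplasmic reticulum stress element. Hspd1 and Hspe1 encode the chaperonin pair HSP60 and HSP10 of mitochondria. Photoreceptors renew a part of their outer segments each day and make large amounts of rhodopsin in the endoplasmic reticulum, so the retina carries a high folding load.

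Reads of mapping quality under 10 were dropped and each position was counted once per strand, which gave 7635799 insertions for wild type and 7646373 for knockout. Of the autosomal ones 19.6% and 18.8% lay in 37048 open regions called on both libraries together. Every ratio below divides knockout by wild type on the log2 scale (pseudocount 0.5) after scaling to the autosomal counts inside those regions. Scaling to all autosomal insertions lowers every ratio by 0.06. The 95% intervals are exact (Clopper-Pearson for ratios, Poisson for counts) and cover counting error only, and reads without molecular identifiers are not independent molecules. The body of Gabra3 held 126 insertions in wild type and 121 in knockout (-0.06, -0.43 to 0.31, scaled to all autosomal insertions). As the kind of allele is not known, this does not check the genotype label. The 7 rod marker loci held 18.0 to 63.6 insertions per kb in the wild-type and 17.2 to 64.8 in the knockout library, against a median of 4.87 and 4.92 over all loci. Of the 3 markers of retinal pigment epithelium Rpe65 and Tyr held 0.773 and 0.876 in the wild-type and 1.24 and 1.07 in the knockout library, and Mitf held 3.77 and 3.74. In whole retina, a change in the share of a cell type and a change in accessibility per cell cannot be told apart.

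The promoters of the 10 genes were among the most open of the retina, with 2 exceptions. Within 500 bp of the gene end with more insertions, which is taken as the promoter, the median of the 10 genes was 201 in wild type and 182.5 in knockout, against 13 and 13 over all protein-coding genes. All windows have the same length, so levels can be compared between genes. In both libraries 8 of the 10 genes stood at or above the 90th percentile, where 10% of all promoters stood in the wild-type and 9.99% in the knockout library. Xbp1 and Hsp90ab1 did not reach it. All 10 promoters overlapped an open region, which held for 50.6% of all promoters. The far end of each gene was nearly closed, with 1 to 16 insertions per library except at Atf4, which had 35 and 40.

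**Figure D1:**
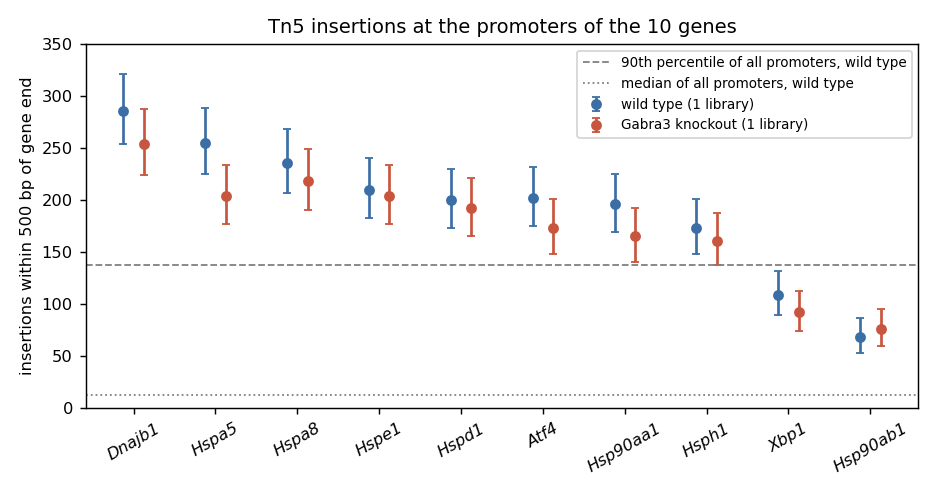
Insertions within 500 bp of the promoter end of each gene (vertical axis) in the wild-type (blue) and knockout (red) library, with exact 95% Poisson intervals. Dashed and dotted lines give the 90th percentile and the median of all promoters in the wild-type library (138 and 13). Of the 10 genes, 8 lie above the dashed line in both libraries.

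Dnajb1 led the group and Hsp90ab1 came last. Summed over both libraries, Dnajb1 had 540 insertions (495 to 588), followed by Hspa5 with 459, Hspa8 with 454, Hspe1 with 414, Hspd1 with 392, Atf4 with 375, Hsp90aa1 with 361 and Hsph1 with 334 (299 to 372). From Hspa5 to Hsph1, each counting interval overlapped that of the gene next above it in the order. Such overlap does not show that counts are equal, and differences between neighbours were not tested. Xbp1 with 201 (174 to 231) and Hsp90ab1 with 144 (121 to 170) each lay below the gene above without overlap.

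Hspa5, the endoplasmic reticulum chaperone BiP (chromosome 2, 34772090 to 34776529), had 255 wild-type and 204 knockout insertions at its promoter, percentiles 99.3 and 97.7. The wild-type library was the higher one, and the log2 ratio was -0.26 (-0.54 to 0.01). It was below 0 on the plus strand (-0.35) and on the minus strand (-0.16), and outside the gene (-0.27) as well as inside (-0.25). Among the 1695 promoters with at least 300 insertions this ratio stood at percentile 1.56, the lowest of the 8 genes with that many. The interval just reached 0 with the main scaling and lay below 0 with all autosomal insertions (-0.32, -0.60 to -0.05). About 80% of the window's insertions, 79.6% in the wild-type and 79.4% in the knockout library, fell outside the gene, that is upstream of the start.

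The stretch before the Hspa5 start is printed because it carries a match to the element of the unfolded protein response and held more insertions than the rest of the window. Sequences are from the RefSeq promoter table of GRCm38.p6, which holds 10 entries for 7 of the 10 genes and none for Hspa8, Hsp90aa1 and Hsp90ab1. Each sequence runs 5′ to 3′ on the gene's strand. Those of Hspa5, Xbp1 and Dnajb1 end at the base before the start, and those of Hsph1 and Hspe1 are shorter parts placed where they are shown. Capitals mark matches, on either strand, to CCAAT, to TGACGT, to pairs of heat shock units (GAANNTTC or TTCNNGAA) and to the endoplasmic reticulum stress element (CCAAT and CCACG with 9 bases of any kind between). The Hspa5 stretch (chr2:34771840-34772089, plus strand) held 144 wild-type and 113 knockout insertions.
Hspa5: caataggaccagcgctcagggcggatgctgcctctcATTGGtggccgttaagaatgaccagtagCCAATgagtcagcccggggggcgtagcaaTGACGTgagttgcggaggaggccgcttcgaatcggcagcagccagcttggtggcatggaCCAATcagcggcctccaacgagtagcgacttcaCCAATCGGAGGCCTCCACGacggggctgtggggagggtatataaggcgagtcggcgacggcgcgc
The stress element lay 65 to 47 bases before the start and was found in 30 of 21263 promoters of protein-coding genes in the table (0.141%), each of 250 bases before and 50 after a start. CCAAT, which forms part of it, stood at 4 places in the Hspa5 entry and at one or more in 38.2% of all entries. TGACGT, the core of a cyclic AMP response element, stood once, 157 to 152 bases before the start, and was present in 8.49% of all entries. A match is a string of letters and not a measured binding site. The table's entries of the 10 genes held the GC box GGGCGG in 8 of 10 cases, which come from 5 genes and in part overlap, against 46.2% of all entries, and TATAAA in 0 of 10, against 12.6%. TATAAA was searched only as that exact string. Near forms, such as the tatataag in the Hspa5 stretch above, were not counted.

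Xbp1, the transcription factor gene downstream of IRE1 (chromosome 11, 5520641 to 5525993), had 109 wild-type and 92 knockout insertions, percentiles 83.7 and 79.6. The wild-type library was higher by less than the counting error (-0.18, -0.60 to 0.23). Its insertions lay almost entirely inside the gene. In the wild-type library 9.17% of those in the window fell upstream of the annotated start, and in the knockout library 10.9%. The bin of 100 bp with most insertions was 200 to 300 bp inside, with 39 and 29. Its upstream stretch is printed as the contrast in insertions to Hspa5. GC content was lower, at 51.0% over the entry of 300 bases, against 61.3% for Hspa5 and a median of 56.3% for all entries. The stretch held 9 insertions in each library (chr11:5520391-5520640, plus strand) and had none of the marked motifs. The entry ends before the bin with most insertions, so the motif search did not cover that bin. Whether the part of the window with most insertions carries these motifs was not tested.
Xbp1: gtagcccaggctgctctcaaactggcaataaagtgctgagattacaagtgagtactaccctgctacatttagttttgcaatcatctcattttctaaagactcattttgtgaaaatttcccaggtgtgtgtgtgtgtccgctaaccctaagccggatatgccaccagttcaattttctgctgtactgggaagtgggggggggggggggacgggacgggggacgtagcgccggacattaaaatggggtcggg

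Atf4, the effector of the PERK arm and of the integrated stress response (chromosome 15, 80255184 to 80257545), had 202 wild-type and 173 knockout insertions at its promoter (-0.16, -0.47 to 0.14). Again the wild-type library was the higher one, within counting error. The open region at its start was the widest of the 10 genes, at 1400 bp, and ran 1016 bp into the gene. Outside the promoter window the rest of the gene body held 46.2 insertions per kb in the wild-type and 41.9 in the knockout library, where the other 9 genes had 3.13 to 15.7. The Atf4 locus also took in an open region at the neighbouring gene Rps19bp1 with 34 and 16 insertions (-1.01, -1.98 to -0.13). That region was singled out after its values were seen and held fewer than the 100 insertions asked of a call. The Atf4 entry held CCAAT at 2 places, 117 to 113 and 76 to 72 bases before the start, and no match to the stress element.

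Among the cytosolic chaperones, Dnajb1, a J-domain partner of HSP70 (chromosome 8, 83608175 to 83612653), had 286 wild-type and 254 knockout insertions. It ranked 60 of all 21887 promoters in the wild-type and 137 in the knockout library. The nearest end of the long non-coding RNA gene Gm42029 lay 325 bp from the Dnajb1 start, inside this window. The libraries differed by less than counting error (-0.11, -0.36 to 0.14), and the strands went apart (-0.25 and 0.04). Its upstream stretch (chr8:83607925-83608174, plus strand) is shown as that of the most open member. It held 148 and 130 insertions, and its one capital run is a CCAAT on the minus strand, with no pair of heat shock units.
Dnajb1: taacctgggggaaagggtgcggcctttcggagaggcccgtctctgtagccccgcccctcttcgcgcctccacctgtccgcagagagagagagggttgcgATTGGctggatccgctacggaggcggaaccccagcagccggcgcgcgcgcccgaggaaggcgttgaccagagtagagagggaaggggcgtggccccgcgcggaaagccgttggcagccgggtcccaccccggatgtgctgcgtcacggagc

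Hspa8, the constitutive HSP70 (chromosome 9, 40801276 to 40805202), had 236 wild-type and 218 knockout insertions at its promoter (-0.06, -0.33 to 0.22). Its signal was the most upstream of the 10, with 86.4% and 85.3% of the window outside the gene. Summed over both libraries, the bin of 100 bp with most insertions lay 300 to 200 bp before the gene, with 52 and 54.

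The HSP90 genes differed from each other. Hsp90aa1, the stress-inducible isoform (chromosome 12, 110691036 to 110696395), had 196 wild-type and 165 knockout insertions (-0.19, -0.50 to 0.12). Hsp90ab1, the constitutive isoform (chromosome 17, 45567778 to 45573261), had 68 and 76 and was the one gene of the 10 with a ratio above 0.1 (0.22, -0.27 to 0.71). Its interval was the widest of the group, since its count was the lowest. The signal of Hsp90ab1 was spread out. Within its window the ratio was -0.07 outside the gene and 0.65 inside. Its start lay in an open region of 1100 bp with 91 and 86 insertions (-0.02, -0.46 to 0.42). A region of 750 bp with 39 and 48 (0.36, -0.28 to 1.01) followed further upstream, within the long non-coding RNA gene Gm35399. The nearest end of Gm35399 lay 54 bp from the Hsp90ab1 end. Over the whole locus the ratio of Hsp90ab1 was -0.05 (-0.29 to 0.19). The window of 500 bp took in 23.1% of the wild-type and 27.8% of the knockout insertions of the locus, less than for any other of the 10 genes.

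Hsph1, the HSP110 nucleotide exchange factor of HSP70 (chromosome 5, 149616843 to 149636498), had 173 wild-type and 161 knockout insertions (-0.04, -0.36 to 0.27). Both libraries showed 2 summits with a gap between. The bin 300 to 200 bp outside the gene held 42 and 34, the bin just outside the gene end held 6 and 11, and the bin just inside held 23 and 26. RefSeq placed the 2 listed starts inside the outermost gene end, at 149636336 and 149636315. The stretch of 250 bp before the first of them held 45 and 52 insertions. It carried a pair of heat shock units, TTCTCGAA, 33 to 26 bases before that start. A TTCNNGAA pair was found in 7.61% of all entries. CCAAT matches lay 116 to 112 and 47 to 43 bases before the same start. The part printed (chr5:149636287-149636316, minus strand) is the array of heat shock units in capitals with its flanks, 37 to 49 bases after that start, and held 3 insertions in each library.
Hsph1: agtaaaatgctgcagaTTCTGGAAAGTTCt
Arrays of 3 such units in turn (GAA, TTC and GAA, or the reverse, each set apart by 2 bases of any kind) were found in 110 of all 21263 entries (0.517%) and in 4 of the 10 entries of these genes. Those 4 came from 3 genes, Hsph1 with its overlapping pair of entries, and Hspd1 and Hspe1, whose entries hold the same array. The 4 are therefore not separate sites.

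Hspd1 and Hspe1 share their promoter, as they start head to head on chromosome 1 (55077833 to 55088243 and 55088148 to 55091317) and overlap by 96 bp. Their windows had 906 bp in common, so their counts are not independent. Hspd1 had 200 wild-type and 192 knockout insertions (0.00, -0.29 to 0.29) and Hspe1 had 210 and 204 (0.02, -0.27 to 0.30). The libraries were thus nearly equal here. A single open region of 1300 bp with 238 and 233 insertions covered both starts. The printed part of it (chr1:55088053-55088082, plus strand) holds, in capitals, the heat shock array that entries of both genes contain, and had 9 and 12 insertions.
Hspe1: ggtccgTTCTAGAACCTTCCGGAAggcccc
The array lay 89 to 72 bases before the Hspe1 start and, read on the other strand, 144 to 127 bases before the inner of the 2 Hspd1 starts. The gene table names 23 pseudogenes after Hspd1 and 7 after Hspe1. No read in the promoter windows of the 10 genes was of mapping quality under 10 in either library, of 3037 wild-type and 2677 knockout reads.

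Summed over both libraries, the bin with most insertions differed in place between genes. It lay upstream for Hspa5, Hspa8, Hsp90aa1, Hsp90ab1, Hsph1, Dnajb1 and Atf4, at the start for the Hspd1 and Hspe1 pair, and inside the gene for Xbp1. Outermost gene ends can differ from the start in use, so the position is relative to the gene table. Of the 10 genes, 8 had a single open region over the gene and 5000 bp either side, a count found at 30.3% of all loci, while Hsp90ab1 and Atf4 had 3. At those 2 loci, regions lay next to the neighbouring genes Slc35b2 and Rps19bp1, which were named after the values were seen.

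**Figure D2:**
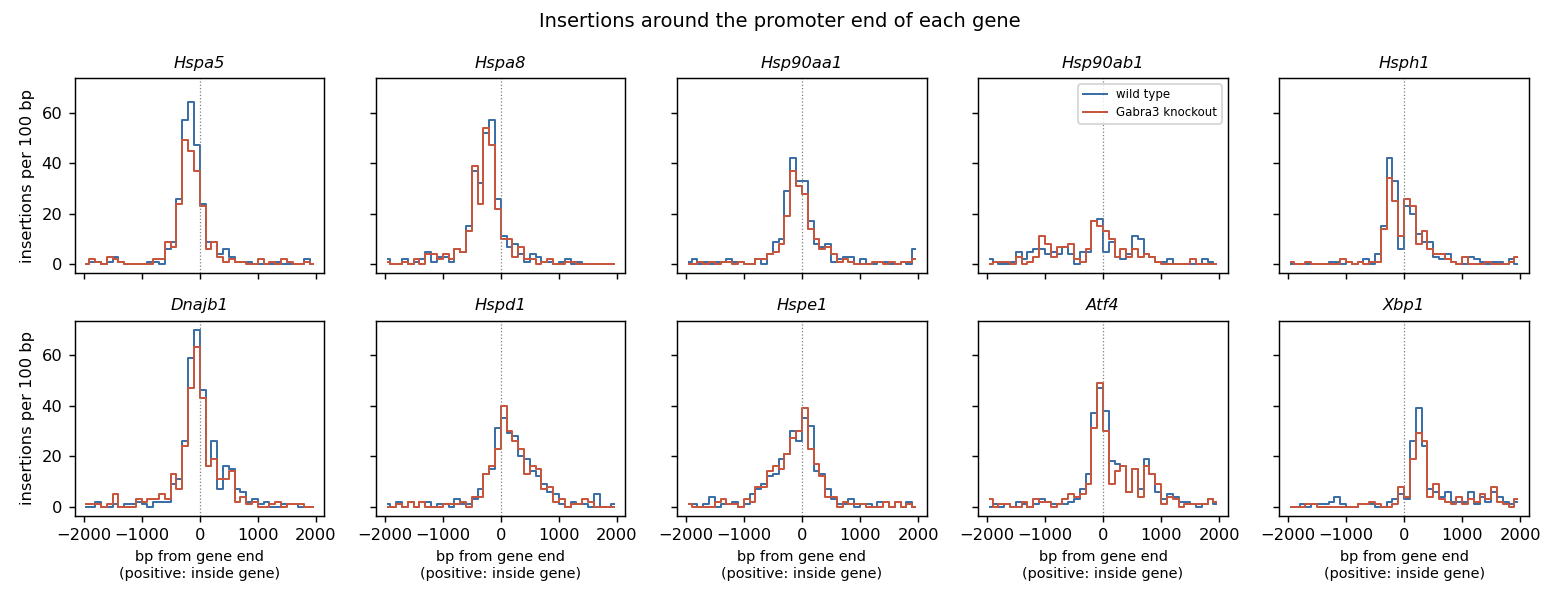
Insertions per 100 bp (vertical axis) from 2000 bp outside to 2000 bp inside the promoter end of each gene (horizontal axis, 0 is the gene end), wild-type library in blue and knockout library in red. Summed over both libraries the summit of Hspa8 is 300 to 200 bp outside and that of Xbp1 200 to 300 bp inside the gene, and the low bin of Hsph1 just outside the gene end (6 and 11) is seen in both libraries.

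Between the libraries, none of the 10 promoters differed by 2-fold or by 1.5-fold. All 10 had at least 100 insertions, as did 34.3% of all promoters. Of the 7509 promoters with that many, 0% were 2-fold higher and 0% 2-fold lower in the knockout library, 0.519% were 1.5-fold higher and 0.226% 1.5-fold lower. The interval of all 10 genes included 0, as for 97.2% of the 7509 (for 9 of the 10 and 96.9% when scaled to all autosomal insertions), and lay within 2-fold, as for 98%. A 2-fold difference therefore lay outside the counting error of each of the 10. A 1.5-fold one lay inside it for Xbp1 and Hsp90ab1, whose intervals reach -0.60 and 0.71.

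The ratios leaned slightly to the wild-type library. Of the 10 genes 7 were below 0, against 45% of the 7509 promoters, with a median of -0.08 against 0.02. The 3 others were Hsp90ab1, Hspd1 and Hspe1, and with all autosomal insertions Hspd1 (-0.06) and Hspe1 (-0.04) were below 0 too. On both strands the sign was the same for 6 of 10 genes. Summed, the windows had 1935 in wild type and 1739 in knockout (-0.09, -0.19 to -0.00), or -0.11 (-0.20 to -0.01) with shared insertions counted once. All promoters with at least 300 insertions summed to 0.02 (0.01 to 0.02). Without Hspa5 the sum of the others gave -0.07 (-0.17 to 0.03), so that the interval then included 0, and with all reads kept it did as well (-0.07, -0.15 to 0.00). With 1 library per genotype, what part of this lean belongs to genotype, animal or library preparation cannot be told apart.

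**Figure D3:**
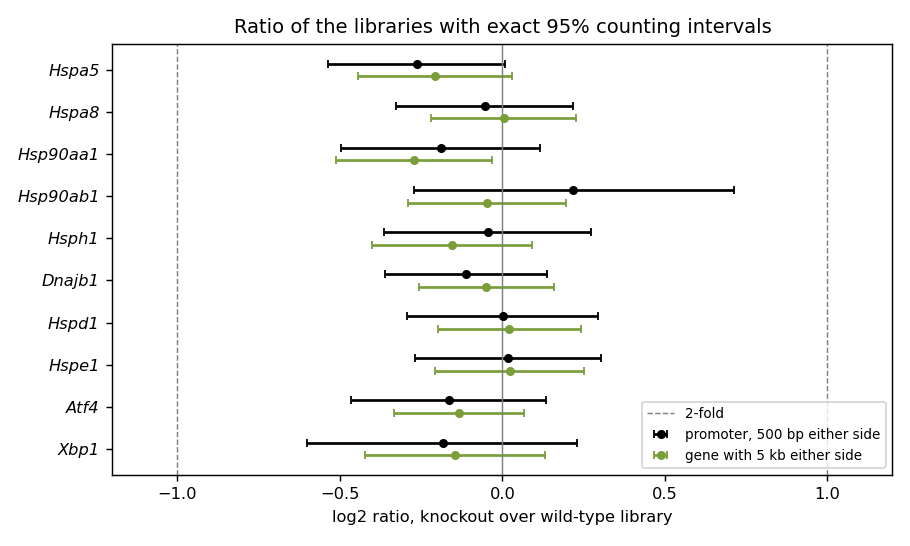
Log2 ratio of knockout over wild-type insertions (horizontal axis) at the promoter (black) and over the gene with 5000 bp either side (green) for each gene, with exact 95% intervals of counting error. All promoter intervals cover 0 and stay inside the dashed lines at 2-fold, and of the loci that of Hsp90aa1 lies below 0.

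Over the whole locus, meaning the gene with 5000 bp either side, the picture was close to that at the promoters. Hsp90aa1 had 327 wild-type and 260 knockout insertions, the lowest ratio of the group (-0.27, -0.51 to -0.03). The interval of the other 9 genes included 0, as for 90.3% of the 16724 loci with at least 100 insertions. For Hsp90aa1 it included 0 with all reads kept (-0.18, -0.38 to 0.02), with a mapping quality of at least 30 (-0.24, -0.48 to 0.01) and over the gene body alone (-0.26, -0.69 to 0.15). Hspa5 followed with 327 and 272 (-0.21, -0.44 to 0.03), and Hspa8 with 343 and 330 was level (0.00, -0.22 to 0.23).

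Of the loci 7 were below 0, against 33.6% of all 16724, and the median of the 10 was -0.09 against 0.06. Hsp90ab1 was below 0 here (-0.05) but above it at the promoter (0.22). Hspa8 was below 0 at the promoter (-0.06) but not here (0.00). Scaled to all autosomal insertions, which lowers the ratio of every locus by 0.06, those of Hspa8 (-0.06), Hspd1 (-0.04) and Hspe1 (-0.04) were below 0 as well. The loci of the 10 genes had a median density of 22.0 per kb in wild type and 18.2 in knockout. Atf4 was the densest, at 35.6 and 31.1 per kb, and Hsph1, the longest of the genes, the thinnest, at 10.0 and 8.67. Promoter windows took from 44.9% (Atf4, knockout) to 78.0% (Hspa5, wild type) of the insertions of a locus, apart from Hsp90ab1. None of the 10 loci reached 1.5-fold, a mark passed upward by 0.365% and downward by 0.0658% of the 16724, or 2-fold, passed upward by 0.00598% and downward by 0%.

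**Figure D4:**
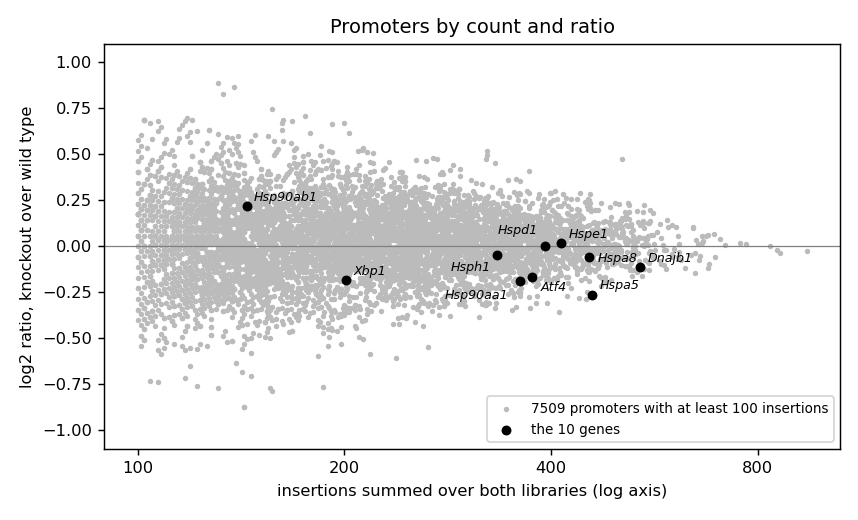
Log2 ratio of knockout over wild type (vertical axis) against insertions summed over both libraries (horizontal log axis) for the 7509 promoters with at least 100 insertions (grey) and the 10 genes (black). The 10 genes lie within the grey cloud, with Hspa5 (-0.26) near its lower edge for promoters of that count and Hsp90ab1 (0.22) the highest.

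Repeated reads were frequent at these promoters. Of the well-placed reads in the 10 windows 36.5% in the wild-type and 35.2% in the knockout library repeated a position and strand, against 11.0% and 9.41% in all reads. The share was 38.1% and 35.6% at all promoters with at least 300 insertions, close to that of the 10 genes. It was highest for Hspa5 (43.5% and 41.7%), Dnajb1 (43.5% and 41.9%) and Hspa8 (41.3% and 41.9%) and lowest for Hsp90ab1 (20.9% and 13.6%). Counting each position once therefore narrows the range between the genes. With repeats kept Dnajb1 had 506 and 437 and Hsp90ab1 86 and 88.

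Other genes of the heat shock and unfolded protein responses were grouped in 11 lists, which also hold the 10 genes where they belong. Beside the 10 there were 129 genes, of which 119 had at least 20 insertions, as did 54.3% of all promoters. Of these 119, 2 were 1.5-fold or more higher in the knockout library (Hspa4l and Hspa12b, both of the HSP70 family) and 2 lower (Hspb3 and Chac1). Among all promoters with that many insertions, 4.07% were higher and 3.31% lower by that much. At 2-fold, 0 were higher (0.925% of all promoters) and 1, Hspb3 with 15 and 6 insertions, was lower (0.622%). The 129 genes summed to a log2 ratio of 0.01 (-0.03 to 0.04), with a median of -0.02 over the 119. Across all promoters with at least 20 insertions the interval included 0 for 96.8%, and Os9 was among the genes of the lists where it did not.

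Chaperones of the endoplasmic reticulum had the highest median promoter level of the 11 lists. Their 18 genes stood at a median percentile of 94.7 in the wild-type and 94.01 in the knockout library, and all 18 overlapped an open region. Hsp90b1, the HSP90 of that compartment, had 237 and 224 insertions (-0.02, -0.29 to 0.25), and Txndc5, a protein disulfide isomerase, had 45 and 64 (0.56, -0.01 to 1.15). The list median ratio was -0.02, and no gene of the list differed by 1.5-fold or more. Among the sensors of the unfolded protein response, Eif2ak3, which encodes PERK, was the most open with 253 and 255 (0.07, -0.19 to 0.33), and Atf6b had 131 and 109 (-0.21, -0.59 to 0.17). Genes of endoplasmic reticulum-associated degradation had a median ratio of -0.01. Edem3, a mannosidase of that pathway, had 305 and 274, and Sel1l, an adaptor of its ubiquitin ligase, 196 and 189. Os9, a lectin, had 142 and 104 (-0.39, -0.77 to -0.02). Over its whole locus Os9 was close to level (-0.04, -0.27 to 0.19).

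In the integrated stress response list the median ratio was -0.05. Ddit3, which encodes the pro-apoptotic factor CHOP downstream of Atf4, had 187 and 145 (-0.31, -0.63 to 0.01), Trib3, another target of Atf4, had 79 and 63 (-0.27, -0.77 to 0.23), and Ppp1r15b, a regulator of eIF2 alpha dephosphorylation, had 217 and 199. These 3 were lower in the knockout library, with intervals that included 0, while Eif2ak3, which is also in this list, was not (0.07). Nor were Atf3 with 176 and 182 (0.11, -0.20 to 0.41) and Ppp1r15a with 40 and 46 (0.26, -0.38 to 0.91). The Atf3 locus stood at 0.29 (0.09 to 0.49). Atf3 and Ppp1r15a were named after their values were seen. Whether targets of Atf4 differed together was not tested. Of the 16 measured genes 10 were below 0, against 46.4% of all promoters with at least 20 insertions.

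The cytosolic lists held both very open and nearly closed promoters. In the HSP70 and HSP110 list Hspa14 had 204 and 184 and Hspa12a 121 and 141 (0.28, -0.08 to 0.64). Hspa4l had 26 and 40 (0.67, -0.07 to 1.45), but 509 and 516 over its locus. The heat-inducible Hspa1a and Hspa1b had 40 and 35, and 41 and 39, and are uncertain: they are near-identical copies, and of the 85 and 96 wild-type reads in their windows 43 and 51 were of mapping quality under 10 and were left out. Among HSP90 co-chaperones Fkbp5 had 190 and 200, Stip1 198 and 187, and Fkbp4 110 and 83 (-0.35, -0.78 to 0.08). J-domain proteins had the highest list median ratio, 0.08, with Dnajc3 at 212 and 242 (0.25, -0.02 to 0.52) and Dnajb6 at 54 and 70 (0.43, -0.10 to 0.97). The chaperonin CCT and prefoldin list had a median of -0.07, with Cct7 at 237 and 221, Tcp1 at 178 and 176, Cct8 at 102 and 76 (-0.36, -0.81 to 0.08) and Pfdn6 at 64 and 45 (-0.44, -1.03 to 0.12). Beside the shared promoter of Hspd1 and Hspe1, the mitochondrial list (median 0.00) had Grpel1, a nucleotide exchange factor, at 217 and 210 and Trap1, the mitochondrial HSP90, at 69 and 78.

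Small heat shock proteins were the exception to open promoters. Their 9 genes had a median of 10 insertions in each library and median percentiles of 45.7 and 45.8, and 3 of 9 overlapped an open region. Hspb6 alone was strongly open, with 138 and 126 (-0.07, -0.43 to 0.29), while Hspb8 had 15 and 10. The list of heat shock factors and their regulators was split as well. Hsf1, the main factor of the heat shock response, had 136 and 120 (-0.12, -0.49 to 0.24), and Hsbp1, which binds it, 124 and 128, and Sirt1, a deacetylase of Hsf1, 126 and 110. In contrast Hsf2, Hsf4 and Hsf5 had 1 to 13 per library at the gene end, though Hsf4 overlapped an open region there. Their loci held 259 and 252, 128 and 105, and 220 and 226. As outermost gene ends can differ from the start in use, low counts there need not mean closed promoters. Hsf2, Hsf4, Hsf5, Hspa1a, Hspa1b, Hspa12b, Hspb3 and Chac1 were named after their values were seen.

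**Figure D5:**
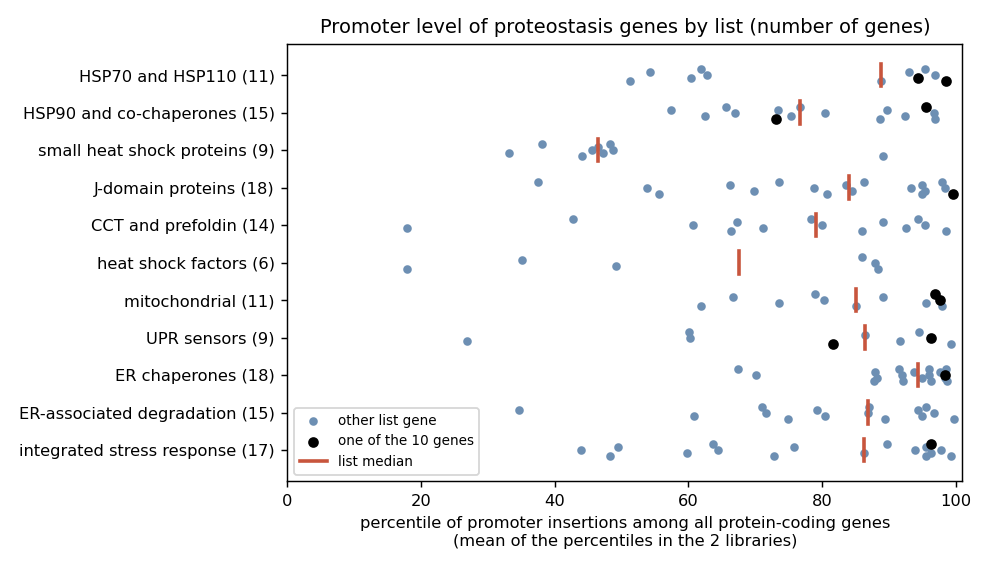
Percentile of promoter insertions among all protein-coding genes (horizontal axis, mean of the percentiles in the wild-type and knockout libraries) for each gene of the 11 lists (rows, number of genes in brackets). Black points are members of the 10, blue points other genes and red bars list medians, which are highest for endoplasmic reticulum chaperones and lowest for small heat shock proteins.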

How the data were processed

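Per the submitters' processing notes, Trimmomatic 0.33, BWA and bedtools 2.23.0 were used with genome GRCm38 (mm10). No source used here gives the BWA version, what each tool did or whether duplicates were filtered. Each line of a file is 1 aligned read, and the score column as deposited by the authors is the mapping quality of a read, not normalized. There were 9170838 reads for wild type (93.6% of quality 10 or more) and 9038110 for knockout (93.4%).

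The 5-prime ends of those reads were shifted by 4 and -5 bp (plus and minus strand), and each position and strand was counted once. Open regions were 200 bp windows in 50 bp steps that passed a Poisson threshold of 1e-05 over the genome's or the surrounding 10000 bp mean, whichever was larger, merged within 150 bp. Because the gene table has no strand, the end of a gene with the higher count within 500 bp was taken as its promoter. Calls needed 2-fold and at least 100 insertions. Scripts in Python 3.11.15 (NumPy 2.4.6, SciPy 1.17.1) were tested on simulated data. Motifs were textbook elements searched in RefSeq promoter entries.

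Alternatives changed scaling, repeats, mapping quality, shift, windows, flanks, pseudocount and thresholds. The genes named were the 10, and in each list the 2 highest counts and the 2 ratios furthest from 0 at 50 or more insertions. Of these, 2 genes are not reported here, and genes named outside the rule are stated as such. Members and lists were chosen with earlier results of these data known.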

Additional observations from a re-analysis of the deposited data

How the results depend on the processing

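The summed promoter ratio of the 10 genes stayed below 0 under 11 alternatives (-0.16 to -0.07), and so did the summed locus ratio under 10 (-0.15 to -0.06). Its interval included 0 in 6 of the 11 and in 2 of the 10. No promoter of the 10 was called under any of 9 alternatives, at 1.5-fold or with a minimum of 20 insertions included, and 8 of the 10 stood at or above the 90th percentile under each of 4. Of the 160 ratios of single genes under alternatives all 160 stayed within the main interval. The alternatives mostly reuse the same reads and that interval is wide, so a ratio could hardly leave it. The interval of the Hspa5 promoter included 0 in 5 of 8. Ratios of Hspa8, Hsph1, Hspd1 and Hspe1 near 0 changed sign with the setting. The median ratio of the small heat shock proteins, -0.07, moved to 0.46 with windows of 250 bp either side. The cause was not tested. Counts without Hspa5, over open regions and with shared insertions of loci counted once were added after seeing the data. No paired analysis was possible because each genotype had 1 library. Depth limits the genes with few insertions most, here Hsp90ab1, Xbp1 and the small heat shock proteins.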
